A study of Mus musculus with 6 samples.

Results

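MicroRNA-335 (miR-335) is made from a single hairpin whose 2 arms, mmu-miR-335-5p and mmu-miR-335-3p (miR-335-5p and miR-335-3p below), are both listed in the small RNA table, and these 2 rows, chosen by name, are described here out of 1522 rows of mature miRNAs. Of all rows, 1147 carry a miRBase name and 375 are predicted, and both arms passed the filter on low values that left 649 rows for testing. The RNA came from hippocampal neural stem cells (NSCs), which divide and give rise to neurons and glia, taken from male C57BL/6J pups on postnatal day 3 by dissociation of the tissue, and the labels name no sorting step. In the exposed group (GDE, titled IUGR in the library names), pregnant dams had been given daily intraperitoneal dexamethasone (1 mg/kg), a glucocorticoid drug, starting at E14.5 of gestation and ending at E18.5. Dams of the Control group (titled Normal) had been given the same volume of saline on the same days. Each group had 3 libraries, which the design text assigns to independent litters, and the number of animals pooled per library is not given in the sources used here. All animals were of 1 strain, 1 sex and 1 age.

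miRNAs are short RNAs cut from hairpins by Drosha and Dicer. One strand of the resulting duplex is loaded into an Argonaute protein and guides it to messenger RNAs that pair with its seed, bases 2 to 8 from the 5′ end, and those messages are repressed. The hairpin of miR-335 sits in an intron of Mest, a gene for a protein of the alpha/beta hydrolase fold that is imprinted and expressed from the paternal copy in the embryo, and host and miRNA can be transcribed together. In human breast cancer cells miR-335 was reported to restrain metastasis through SOX4, a transcription factor of progenitor cells, and TNC, an extracellular matrix protein that is also found around neural stem cells. The title of the study names miR-335-3p as a target for restoring NSC proliferation in exposed offspring, so its level in exposed and control cells is the question this comparison addresses.

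The mature arms are shown because each has its own seed and so its own set of possible targets. Sequences are from RefSeq (GRCm38.p6), where both arms were found by name, and capitals mark the seed.

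mmu-miR-335-5p: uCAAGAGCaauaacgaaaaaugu

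mmu-miR-335-3p: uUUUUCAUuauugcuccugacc

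Both arms begin with U, as did 43.2% of the 960 named miRNAs of the table that could be matched to RefSeq by name. The seed of the 3p arm holds 5 U and 1 G or C, and 3.44% of the other matched miRNAs had a seed with so few G and C. The seed of the 5p arm holds 4 G or C and no U. No other matched miRNA of the table shared bases 2 to 8 with either arm. For bases 2 to 7, 1 other miRNA, miR-6986-3p, matched the 3p arm and 0 matched the 5p arm.

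The hairpin is shown with both arms in capitals, to place them in their precursor.

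Mir335: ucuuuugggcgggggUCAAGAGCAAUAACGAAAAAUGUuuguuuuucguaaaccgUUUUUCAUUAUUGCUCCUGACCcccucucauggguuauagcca

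It covers chr6:30741299-30741396 on the plus strand (98 bases), with the 5p arm at hairpin bases 16 to 38 and the 3p arm at bases 56 to 77, 17 bases apart. In the fold of lowest energy (RNAfold, -44.3 kcal per mol), 18 bases of the 5p arm paired with the 3p arm. Of the first 5 pairs counted from the 5′ end of each arm, 2 were G-C pairs at the 5p end and 0 at the 3p end. In GENCODE M21 (GRCm38) the hairpin lies in an intron of 7 of the 11 Mest transcripts, 6 of them protein-coding, and in an exon of none. That intron runs from 30740825 to 30742140 on chromosome 6 (1316 bases), within Mest at 30723547 to 30748465. Mest mRNA is not part of a small RNA table, so host and miRNA could not be set side by side.

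The 2 seeds match different sites. The site of the 5p arm (GCTCTTG, searched on the message strand) occurred in the longest annotated 3′ UTR of 12.0% of 21020 mouse protein-coding genes, and that of the 3p arm (ATGAAAA) in 19.8%. The 2 human targets named above and Rb1, the retinoblastoma gene that restrains entry into the cell cycle, were looked up together with Mest. The 3p site occurred once each in Rb1, Sox4 and Tnc. The 5p site occurred once in Rb1 and was absent from Sox4 and Tnc, and neither site occurred in Mest. The human report is cited above without naming an arm, so these sites do not assign its targets to the 3p arm. The windows are shown with the site in capitals.

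Rb1, 5p site: tgatgtttGCTCTTGgttttatt

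Rb1, 3p site: aacttcagATGAAAAcagctgca

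Sox4, 3p site: caagagagATGAAAAcgtttgat

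Tnc, 3p site: tggtgatgATGAAAActgaggac

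These are matches of letters only, and messenger RNA was not measured in these libraries.

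Values were read as RPM, tags scaled to the depth of the whole library, in which 1 RPM was about 12 tags. This unit and the depths below were inferred from the steps between the values. Each library rested on 11751000 to 12385000 tags, of which 24.1% to 27.8% were in the table, and between 1273 and 1332 rows were detected per library. miR-9-5p, which is abundant in neural progenitors, averaged 8389 ± 209 RPM in GDE and 8427 ± 357 RPM in Control (mean ± SD, n = 3 each, as throughout). The most abundant rows lay close together, such as miR-9b-3p (9360 RPM in GDE, 9307 RPM in Control) and miR-99a-5p (8719 RPM in GDE, 8772 RPM in Control). Whether such high values are capped was not tested, so the near-equal means of miR-9-5p are not a measure of progenitor content. miRNAs of other cells were present too. The list of microglia and leukocyte miRNAs summed to 6092 to 7241 RPM in GDE and 6305 to 7115 RPM in Control, most of it from miR-21a-5p (mean 4155 RPM in GDE and 4719 RPM in Control) and miR-146a-5p (1889 RPM in GDE and 1628 RPM in Control), so the sum says little of its scarcer members. The endothelial and mural list summed to 391 to 618 RPM in GDE and 363 to 444 RPM in Control, and the erythroid list to 73.9 to 93.6 RPM in GDE and 35.0 to 69.1 RPM in Control. The choroid plexus and ependymal list summed to 2511 to 2711 RPM in GDE and 2480 to 3186 RPM in Control. None of the members of these lists was at 0 in every library. Control replicate 1 stood apart in the range where miR-335 lies, being the highest of the 6 libraries for 51 of the 107 named miRNAs that averaged 100 to 1000 RPM (47.7%).

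miR-335-3p was lower in GDE NSCs, at less than the level of any Control library, although the difference did not pass the test over all miRNAs. The 3p arm was at 142.2, 162.4 and 176.1 RPM in GDE replicates 1 to 3, against 509.8, 323.6 and 200.2 RPM in Control replicates 1 to 3. These values rest on 1703, 1919 and 2135 tags in GDE and on 6134, 4008 and 2353 tags in Control. The groups did not overlap, but GDE replicate 3 and Control replicate 3 lay close together, and Control replicate 1 was far above all others. Over the table, the groups did not overlap with GDE lower for 65 of 649 rows, or 10.0%, so a separation of this kind was common. The mean was 160.2 ± 17.0 RPM in GDE and 344.5 ± 155.8 RPM in Control, which puts GDE at 46.5% of Control.

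On the log2(RPM + 1) scale the 3p arm differed by -1.003 (GDE minus Control; SE 0.323, 95% interval -1.75 to -0.26). In limma the unadjusted p was 0.0149, the rank of this row by p was 14 of 649, and the adjusted p was 0.551 (0.0982 to 0.818 over the alternatives tried). Of the 2 arms, 0 passed at an adjusted p under 0.05, against 0.308% of all rows in either direction. An unadjusted p under 0.05 was found for 8.63% of all rows, and for 4.62% with GDE lower. On this scale 7 of the 649 rows had a more negative difference. In an exact two-sided permutation test of the RPM p was 0.1, and 3 libraries against 3 can give no smaller value. Without Control replicate 1 the difference was -0.67, and without Control replicate 3 it was -1.34. The study's title speaks of targeting miR-335-3p in exposed offspring, a word that by itself gives no direction of change. In these data the miRNA was lower in the libraries titled IUGR. This direction follows the titles of the libraries, and the table holds no value that checks these labels.

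**Figure D1:**
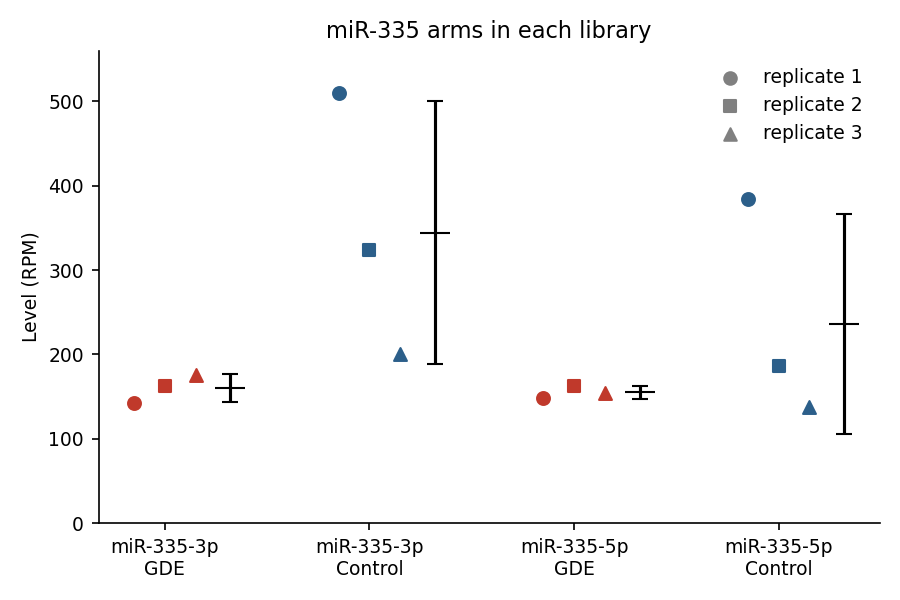
Level in RPM (y axis, linear from 0) of miR-335-3p and miR-335-5p in each library, GDE in red and Control in blue; symbols give the replicate, and the black bars beside them the mean ± SD (n = 3). The GDE libraries of the 3p arm sit between 142.2 and 176.1 RPM, below all Control libraries, while the 5p arm overlaps between the groups.

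miR-335-5p, the other arm, overlapped between the groups. It was at 148.2, 162.6 and 153.9 RPM in GDE replicates 1 to 3, against 384.3, 185.8 and 137.7 RPM in Control replicates 1 to 3. Control replicate 3 was the lowest of the 6 libraries and Control replicate 1 the highest, at more than the level of any GDE library. The mean was 154.9 ± 7.26 RPM in GDE and 235.9 ± 130.7 RPM in Control, and GDE stood at 65.7% of Control. The log2 difference was -0.47 (SE 0.353, 95% interval -1.28 to 0.35; limma, adjusted p = 0.703; exact permutation p = 0.4). Without Control replicate 1 it was -0.05, so 1 library carried nearly all of it. The interval holds both 0 and the value of the 3p arm.

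**Figure D2:**
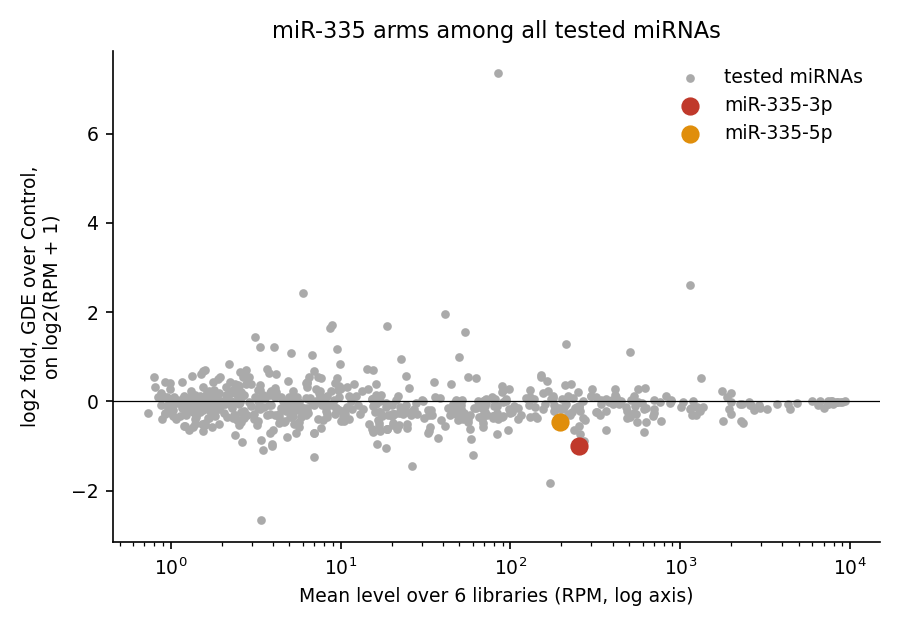
Log2 fold of GDE over Control on log2(RPM + 1) (y axis) against the mean level over the 6 libraries in RPM (x axis, log scale) for the 649 tested rows, each a point. miR-335-3p lies at -1.003 and miR-335-5p at -0.47, both below the median of -0.07 over all tested rows.

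Both arms were spread more widely in Control than in GDE. The coefficient of variation of the 3p arm was 10.6% in GDE and 45.2% in Control, and that of the 5p arm was 4.69% in GDE and 55.4% in Control. Within Control the highest library held 2.55 times the lowest for the 3p arm and 2.79 times for the 5p arm, while within GDE these ratios were 1.24 and 1.10. Among the 107 named miRNAs that averaged 100 to 1000 RPM, 3 had a larger SD of log2(RPM + 1) within Control than the 3p arm (SD 0.67) and 2 a larger one than the 5p arm (SD 0.76), where the median was 0.26. Within GDE, 70 of the 107 had a larger SD than the 3p arm (SD 0.15) and 97 a larger one than the 5p arm (SD 0.07), with a median of 0.20. These are descriptions of 3 libraries per group, and the difference in spread was not tested.

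In the order of levels both arms lay in the upper part of the table. By mean RPM over the 6 libraries the 3p arm was at rank 112 and the 5p arm at rank 130 of the 1147 named miRNAs. In single libraries the 3p arm ranked 127 to 142 in GDE and 84 to 127 in Control, and the 5p arm 135 to 140 in GDE and 97 to 146 in Control. The neighbours of the 3p arm were miR-218-5p (253.5 ± 41.7 RPM, SD over 6 libraries) and miR-672-5p (252.4 ± 59.6 RPM) above it, and miR-383-5p (249.2 ± 36.6 RPM) and miR-7a-5p (246.7 ± 41.1 RPM) below it. The neighbours of the 5p arm were miR-193b-3p (200.2 ± 40.6 RPM) and miR-125b-1-3p (196.9 ± 36.8 RPM) above it, and miR-106b-5p (192.6 ± 38.4 RPM) and miR-99b-3p (184.2 ± 29.8 RPM) below it. The range over libraries of each of these 8 overlapped that of its miR-335 arm, so the order among them is not set beyond their spread. The arms themselves varied more, with an SD over the 6 libraries of 141.5 RPM for the 3p arm and 93.9 RPM for the 5p arm.

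The balance of the arms separated the groups. In GDE the 3p arm made up 49.0%, 50.0% and 53.4% of the miR-335 tags of replicates 1 to 3, and in Control 57.0%, 63.5% and 59.3%. The 95% Wilson intervals were 47.3% to 50.6%, 48.4% to 51.6% and 51.8% to 54.9% in GDE, and 56.1% to 58.0%, 62.3% to 64.7% and 57.7% to 60.8% in Control. Each interval covers counting error only and treats tags as independent molecules. Whether PCR copies were collapsed is unknown, so the intervals may be too narrow. The arms were at near parity in 2 GDE libraries, and the 3p arm was ahead in GDE replicate 3 and in all Control libraries, with no GDE interval reaching a Control interval.

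The mean 3p share was 50.8% ± 2.30 in GDE and 59.9% ± 3.31 in Control. As log2 of 5p over 3p, on RPM + 1, the balance was 0.06, 0.00 and -0.19 in GDE replicates 1 to 3, against -0.41, -0.80 and -0.54 in Control replicates 1 to 3. The ratio averaged -0.04 in GDE and -0.58 in Control, a difference of 0.54 (GDE minus Control; SE 0.209, 95% interval 0.05 to 1.03). It did not pass in limma over all 157 precursors with both arms tested (unadjusted p = 0.0356, adjusted p = 0.686), where 0% of precursors passed. The unadjusted p was under 0.05 for 9 of the 157 precursors, or 5.73%. The exact two-sided permutation p was 0.1, the smallest possible. Groups that do not overlap with the ratio higher in GDE were likewise seen for 9 of 157 precursors, or 5.73%, and with the ratio lower in GDE for 5.10%. The library with the highest level of both arms, Control replicate 1, had the least extreme ratio among the Control libraries, and without it the difference was 0.62.

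**Figure D3:**
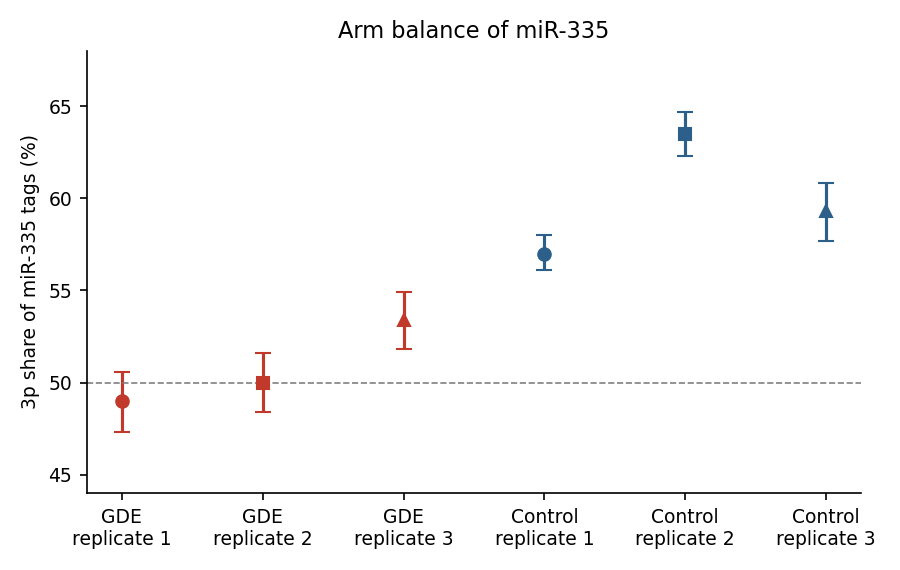
Share of the 3p arm in the miR-335 tags (y axis, percent, from 44 to 68) in each library, GDE in red and Control in blue, with 95% Wilson intervals as bars and a dashed line at equal arms. The GDE libraries lie between 49.0% and 53.4% and the Control libraries between 57.0% and 63.5%.

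Among the 155 named precursors with both arms tested, miR-335 was one of the more balanced, and 7 had a mean log2 ratio closer to 0. A mean ratio within 2-fold of equality was found for 28 precursors (18.1%). The arm in excess was not the same in all 6 libraries for 18 precursors (11.6%), miR-335 included. In the order of mean ratios miR-335 stood at -0.31, between miR-3061 (0.03) and miR-212 (-0.27) above it and miR-3098 (-0.35) and miR-339 (-0.36) below it. The ranges over libraries of these 4 overlapped that of miR-335. The difference of 0.54 between the groups was exceeded in size by 22 of the 155 precursors, whose median absolute difference was 0.23. Of the 16 precursors with both arms at a mean of at least 100 RPM, where tags are many, 2 had a larger one. These 2 are named because of their values. They were miR-296, at a mean log2 ratio of 2.80 in GDE and 1.26 in Control, and miR-423, at -3.95 in GDE and -3.21 in Control.

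**Figure D4:**
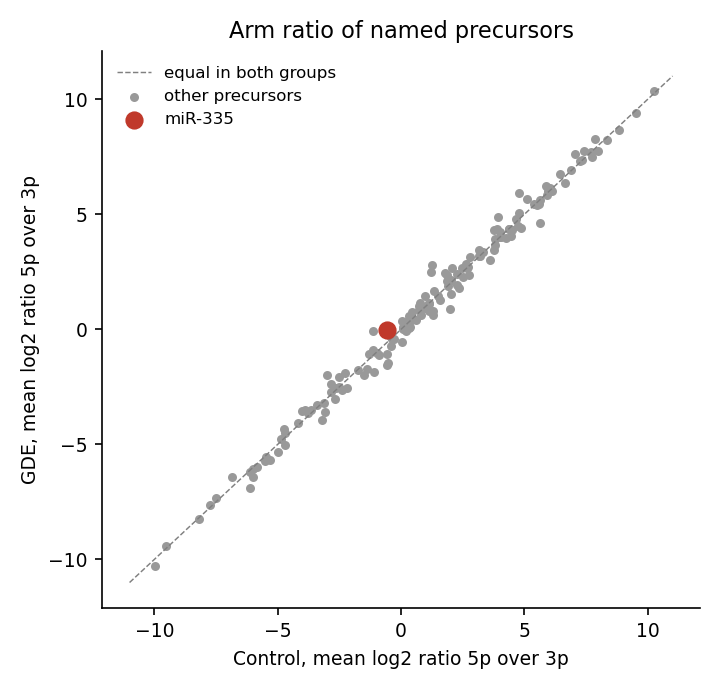
Mean log2 arm ratio (5p over 3p) in GDE (y axis) against that in Control (x axis) for the 155 named precursors with both arms tested; the dashed line marks equal ratios. miR-335, in red, lies at -0.04 in GDE and -0.58 in Control.

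Taken as 1 precursor, the summed arms of miR-335 were at 290.4, 325.0 and 329.9 RPM in GDE replicates 1 to 3, against 894.0, 509.4 and 337.9 RPM in Control replicates 1 to 3. The mean was 315.1 ± 21.6 RPM in GDE and 580.5 ± 284.8 RPM in Control (exact two-sided permutation p = 0.1). The gap between GDE replicate 3 and Control replicate 3 was small, and it closed when tags were counted per 100000 tags of the table instead of being scaled to the whole library. On that scale the sum was 112, 125 and 137 in GDE and 322, 201 and 130 in Control, so that Control replicate 3 lay among the GDE libraries. The 3p arm alone still did not overlap on that scale, at 55.1 to 72.9 in GDE and 77.0 to 183 in Control.

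The miRNAs with the most alike pattern were taken by Pearson's r of log2(RPM + 1) over the 6 libraries, among 560 other named miRNAs. For the 3p arm they were miR-32-3p (r = 0.997), miR-130b-5p (0.982), miR-34b-3p (0.976), miR-669l-5p (0.963) and miR-676-3p (0.959). All 5 were highest in Control replicate 1 and next highest in Control replicate 2. miR-130b-5p was at 177, 170 and 194 RPM in GDE replicates 1 to 3, against 412, 285 and 186 RPM in Control replicates 1 to 3. miR-34b-3p, one of the miRNAs of ciliated cells in the choroid plexus and ependymal list, was at 638, 673 and 631 RPM in GDE, against 1099, 936 and 675 RPM in Control. miR-676-3p was at 208, 183 and 178 RPM in GDE, against 452, 321 and 209 RPM in Control. The 3p arm moved over a wider range than any of these 5.

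For the 5p arm the most alike were miR-674-5p (r = 0.987), let-7c-1-3p (0.976), miR-872-3p (0.971), miR-6936-5p (0.970) and miR-149-5p (0.969). miR-674-5p was at 445, 439 and 423 RPM in GDE, against 797, 528 and 418 RPM in Control. The r between the 2 arms of miR-335 was 0.889, and 35 named miRNAs had a higher r with the 3p arm and 36 with the 5p arm. These r are descriptions over 6 libraries, of which Control replicate 1 lies far from the rest.

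**Figure D5:**
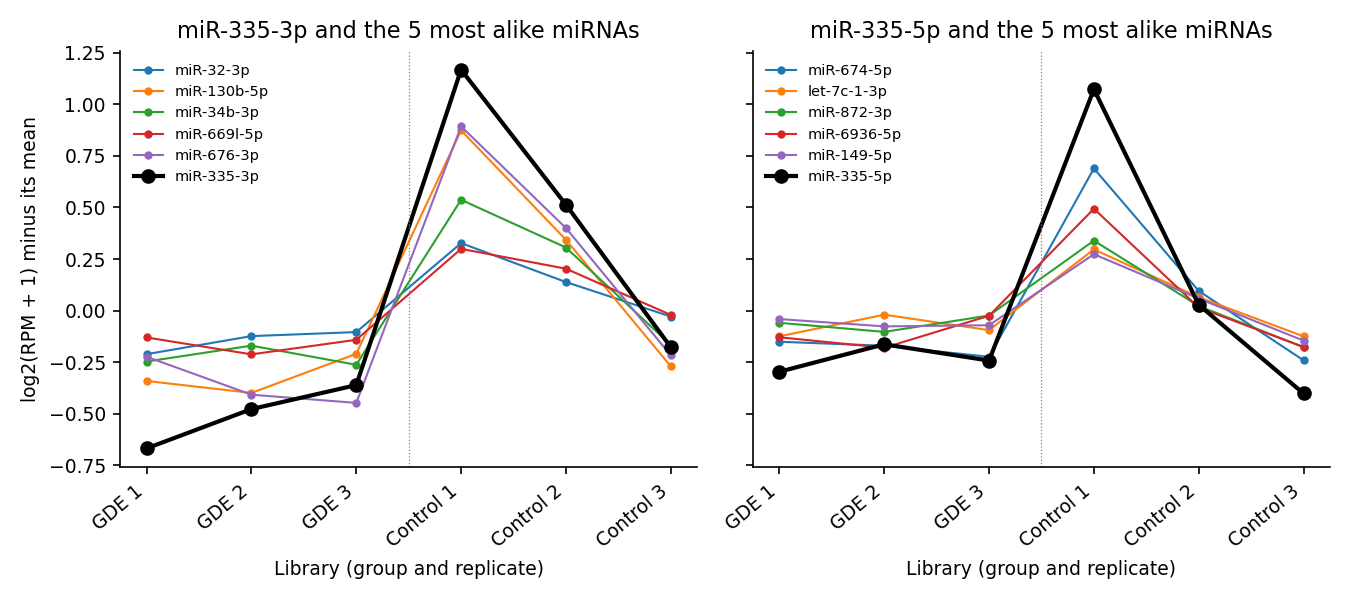
Log2(RPM + 1) minus its mean over the 6 libraries (y axis) in each library (x axis, GDE left of the dotted line) for miR-335-3p (left panel) and miR-335-5p (right panel), in black, with the 5 most alike miRNAs in colour; lines join the values of 1 miRNA and carry no order. All profiles peak in Control replicate 1, and miR-335 has the widest range in each panel.

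miRNAs of other cell types were compared between the same groups. The lists had been chosen with earlier results of these data known. In the microglia and leukocyte list, 5 of 7 tested members had a fold above 0 and 2 had one below it, and the median log2 fold was 1.23, against -0.07 over all tested rows. The 2 below it were miR-21a-5p, the most abundant member (log2 fold -0.18), and miR-155-5p (log2 fold -0.25). miR-155-5p averaged 90.6 ± 6.57 RPM in GDE libraries and 108 ± 13.1 RPM in Control libraries. miR-150-5p, a lymphocyte miRNA, averaged 298 ± 62.5 RPM in GDE libraries and 127 ± 52.4 RPM in Control libraries (limma, adjusted p = 0.51). Outside the naming rule, and given after their values were seen, miR-223-3p, of myeloid cells, averaged 78.3 RPM in GDE libraries and 29.95 RPM in Control libraries, and miR-142a-3p, of blood cells, 12.9 RPM in GDE libraries and 4.78 RPM in Control libraries (limma, adjusted p = 0.551 and 0.561). For miR-150-5p, miR-223-3p and miR-142a-3p every GDE library was above every Control library. This held for 30 of the 649 tested rows, or 4.62%, and the last 2 of these 3 were chosen with their values known. In the endothelial and mural list 7 of 8 had a positive fold (median 0.33). In the erythroid list both tested members had one, but the median of 0.52 rested on miR-451a, of red cells (log2 fold 1.0). miR-451a averaged 65.3 ± 8.06 RPM in GDE libraries and 34.5 ± 16.5 RPM in Control libraries (limma, adjusted p = 0.551). The other tested member, miR-486a-5p, was nearly level between the groups (log2 fold 0.05). The listed miR-144-3p and miR-144-5p did not pass the filter on low values. In the choroid plexus and ependymal list 3 folds were positive and 4 negative (median -0.07). Its members did not run together. The list's sum was highest in Control replicate 1, at 3186 RPM, and so were miR-34b-3p and miR-34c-5p (1034 RPM there). miR-204-5p, a miRNA of the choroid plexus epithelium, was lowest in that library, with 688, 385 and 974 RPM in GDE replicates 1 to 3, against 155, 325 and 519 RPM in Control replicates 1 to 3. In the neural progenitor and brain list 2 folds were positive and 4 negative (median -0.01). Its most abundant members, miR-9-5p and miR-9-3p, lie in the range where the highest rows bunched, so their folds near 0 carry the limit given above. None of the members of these lists passed at an adjusted p under 0.05. The part of any of these cells in the miR-335 levels was not tested, and in bulk RNA fewer cells of a type and less of a miRNA per cell cannot be told apart.

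Imprinted loci that hold miRNAs were described beside Mest. Of the 6 listed arms from loci whose host is expressed from the paternal copy, as Mest is, 4 were tested, and all 4 folds were negative (median -0.28), as were those of 60.7% of all tested rows. They were both arms of miR-296 and of miR-298, from the Gnas region, and 0 passed the test. The list does not hold every such locus, and miRNAs of the Sfmbt2 intron are not in it. Their folds ran both ways, with a log2 fold of -0.31 for miR-467a-5p, 2.44 for miR-669c-5p and 7.36 for miR-297c-5p. The negative folds of the list are therefore those of 1 region. miR-296-3p was at 158, 88.6 and 23.6 RPM in GDE replicates 1 to 3, against 332, 206 and 223 RPM in Control replicates 1 to 3 (log2 fold -1.82, SE 0.611; limma, adjusted p = 0.551). It did not overlap between the groups, but unlike miR-335-3p it varied more within GDE than within Control on the log2 scale. For miR-296-5p the GDE libraries averaged 504 ± 161 RPM and the Control libraries 601 ± 107 RPM. For miR-298-5p the means were 96.6 ± 2.61 RPM (GDE) and 112 ± 44.5 RPM (Control), and for miR-298-3p 17.7 ± 2.54 RPM (GDE) and 22.5 ± 8.29 RPM (Control).

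Among 26 tested miRNAs of loci expressed from the maternal copy, H19 and Dlk1-Dio3, 8 folds were below 0 and 18 above (median 0.15), and 0 passed. Of the most abundant, miR-127-3p averaged 64.6 ± 6.63 RPM (GDE) and 80.4 ± 10.7 RPM (Control), miR-379-5p averaged 46.3 ± 13.5 RPM (GDE) and 69.4 ± 8.72 RPM (Control), and miR-411-5p averaged 42.9 ± 2.32 RPM (GDE) and 52.8 ± 9.91 RPM (Control). miR-376a-3p averaged 30.1 ± 2.29 RPM (GDE) and 15.4 ± 3.55 RPM (Control). The folds of these lists were not set against that of miR-335 in a test. Over all tested rows 2 passed, of which the named one was miR-297c-5p of the Sfmbt2 intron. It averaged 169.7 RPM in GDE libraries and 0.0277 RPM in Control libraries (limma, adjusted p = 4.72e-07), so its mean in GDE was close to that of miR-335-3p.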

How the data were processed

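The table deposited by the authors holds 1 value per mature miRNA and library, which the file headers call expression and which were read as RPM because they are whole multiples of 1 step. The submitters' processing notes name Bowtie2 and mm10. Trimming, the handling of multi-matching reads and any collapsing of duplicates were not given in the sources used here. Libraries were made with an MGIEasy small RNA kit, per the labels' protocols. In each library 100% of the nonzero values came out whole within 0.1 tags, which gave the depth and the tags. A count of 0 would allow up to 3 tags, 0.242 to 0.255 RPM. Neither miR-335 row shared its values with another row.

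Rows with at least 1 RPM in 3 or more libraries were tested with limma 3.58.1 (R 4.3.3, trend, two-sided, Benjamini-Hochberg) on log2(RPM + 1), which understates changes of low miRNAs, and arm ratios likewise per precursor, pairing arms by name. Single values were tested by exact permutation. The fits were tested on simulated data. edgeR 4.0.16 on the recovered tags called 2 rows, and DESeq2 1.42.0 and limma-voom were further alternatives. Libraries of the same group differed well beyond sampling noise (chi-square per degree of freedom 47.1 to 173). Python 3.11.15 and RNAfold 2.7.2 were used for sequences. The miRNAs named are the 2 arms, their neighbours in level and arm ratio, the most alike profiles, up to 4 abundant members of each list, and rows past the threshold; some list members are not printed. Members and lists were chosen with earlier results of these data known.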

Additional observations from a re-analysis of the deposited data

How the results depend on the processing

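Both arms of miR-335 kept a negative log2 difference and stayed short of the threshold in all 18 alternatives, and the arm ratio kept its sign and stayed short in all 13. Leaving out 1 library moved the 3p arm between -1.34 and -0.67, the 5p arm between -0.78 and -0.05, the arm ratio between 0.43 and 0.62 and the summed arms between -1.10 and -0.40 on the log2 scale, in each case except the arm ratio with the smallest difference when Control replicate 1 was left out; the other alternatives gave -1.01 to -0.90 for the 3p arm, -0.47 to -0.36 for the 5p arm and 0.52 to 0.54 for the arm ratio. The lowest adjusted p of the 3p arm was 0.0982, in DESeq2. Replicate numbers are shared between the groups but did not pair the libraries (r of same-numbered deviations -0.12 to -0.03); with a replicate block the 3p arm was at -1.003 (limma, adjusted p = 0.423), the 5p arm at -0.47 (adjusted p = 0.714) and the arm ratio at 0.54 (adjusted p = 0.808), with 2 rows called. The count of rows called was 2, and 1 with the filter at 10 RPM, with named rows only and in limma-voom, 7 in DESeq2, and 1 to 2 with 1 library left out. The count of precursors with a changed arm ratio was 0, and 1 with no filter; the cause was not tested. Scaling by the table's sum or by TMM moved the median fold of all rows by less than 0.1. With 3 libraries a group, of which Control replicate 1 stands apart, the size of the miR-335 difference is poorly set, while 1618 to 6134 tags per arm and library make counting error small beside it.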
